A study of Bos taurus with 8 samples.

Results

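Enteric neurons and glia form the nervous system of the gut wall. The present account follows 33 genes known as markers of these cells in the rumen of newborn calves and adult steers. They were found by exact match of their symbols to the gene names of the deposited count table, and all 33 were present among its 33132 genes. They fall into 19 neuronal genes (identity, growth and structure of neurons), 10 transmitter genes (neuropeptides, a transmitter enzyme and proteins of secretory granules) and 4 glial genes.

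The study compared rumen tissue of 4 neonatal male calves with that of 4 adult steers by RNA-seq, to look at gene expression, signalling and transcription factors in rumen growth after birth. Steers are castrated males, and all 8 animals were of angus cross breed. The groups therefore differ in age and in castration together, and these cannot be told apart here. The labels give 1 library per animal and name no diet, batch or part of the rumen sampled.

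The enteric nervous system arises from neural crest cells that settle in the gut wall and form ganglia between and beneath the muscle layers. PHOX2A is a transcription factor of these neurons, and the receptor RET, with the co-receptors GFRA1 and GFRA2, receives GDNF-family signals needed for their survival. Mature neurons signal to muscle, vessels and epithelium with nitric oxide, acetylcholine and peptides such as VIP, galanin and substance P, while glia that carry SOX10 and S100B ensheathe them.

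Library totals ran from 42322022 to 54449684 counts, so 3 counts in a library corresponded to 0.0502 to 0.0835 CPM, the count scaled to library size and composition that is used for all levels. As a check of the labelled tissue, KRT5, a keratin of the basal layer of stratified epithelium such as that of the rumen, was at 2646 to 3932 CPM over the 8 libraries. Steer 4 had a summed smooth muscle level of 12971 CPM against 60828 to 127360 in the other 3 steers and 7854 to 22004 in the calves. An earlier look at these data had set calf 2 and steer 4 apart, so the counts of changed genes are also given without them. Adjusted p-values are from edgeR's quasi-likelihood test with Benjamini-Hochberg adjustment over 16326 tested genes, and a gene was called at an adjusted p under 0.05. Changes are log2 of steer over calf, with the standard error (SE), and the median over all tested genes was 0.04.

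Most of the neuron genes were lower in steer rumen. Of the 33 genes, 17 were called lower and 1, GFRA2, was called higher, while 15 were not called. Over all tested genes, 9.16% were called lower and 7.7% higher. The median change of the 33 genes was -2.64, and 30 of them had a negative change. For 22 of the 33 genes every steer lay below every calf, against 12.8% of all tested genes, and for none did every steer lie above every calf, against 10.5%. Without calf 2 and steer 4 the counts were 17 lower and 1 higher of 32 tested.

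The 3 groups did not have the same counts. Neuronal genes had 11 of 19 called lower, 1 higher and a median change of -2.55. Transmitter genes had 6 of 10 called lower, none higher and a median of -3.46. Among glial genes 0 of 4 were called in either direction by edgeR, with a median of -0.66. At an unadjusted p under 0.05, 1 glial gene was lower (SOX10) and 0 were higher, and DESeq2 called 1 lower while limma-voom called 0. The difference between the groups of genes was not tested. Which cells gave the counts was not tested for any gene, whether it fell or rose. In whole tissue, fewer cells of a type and less RNA of that gene per cell cannot be told apart. The labels do not name the part of the rumen sampled, so a difference in the tissue taken cannot be told apart from these either.

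**Figure D1:**
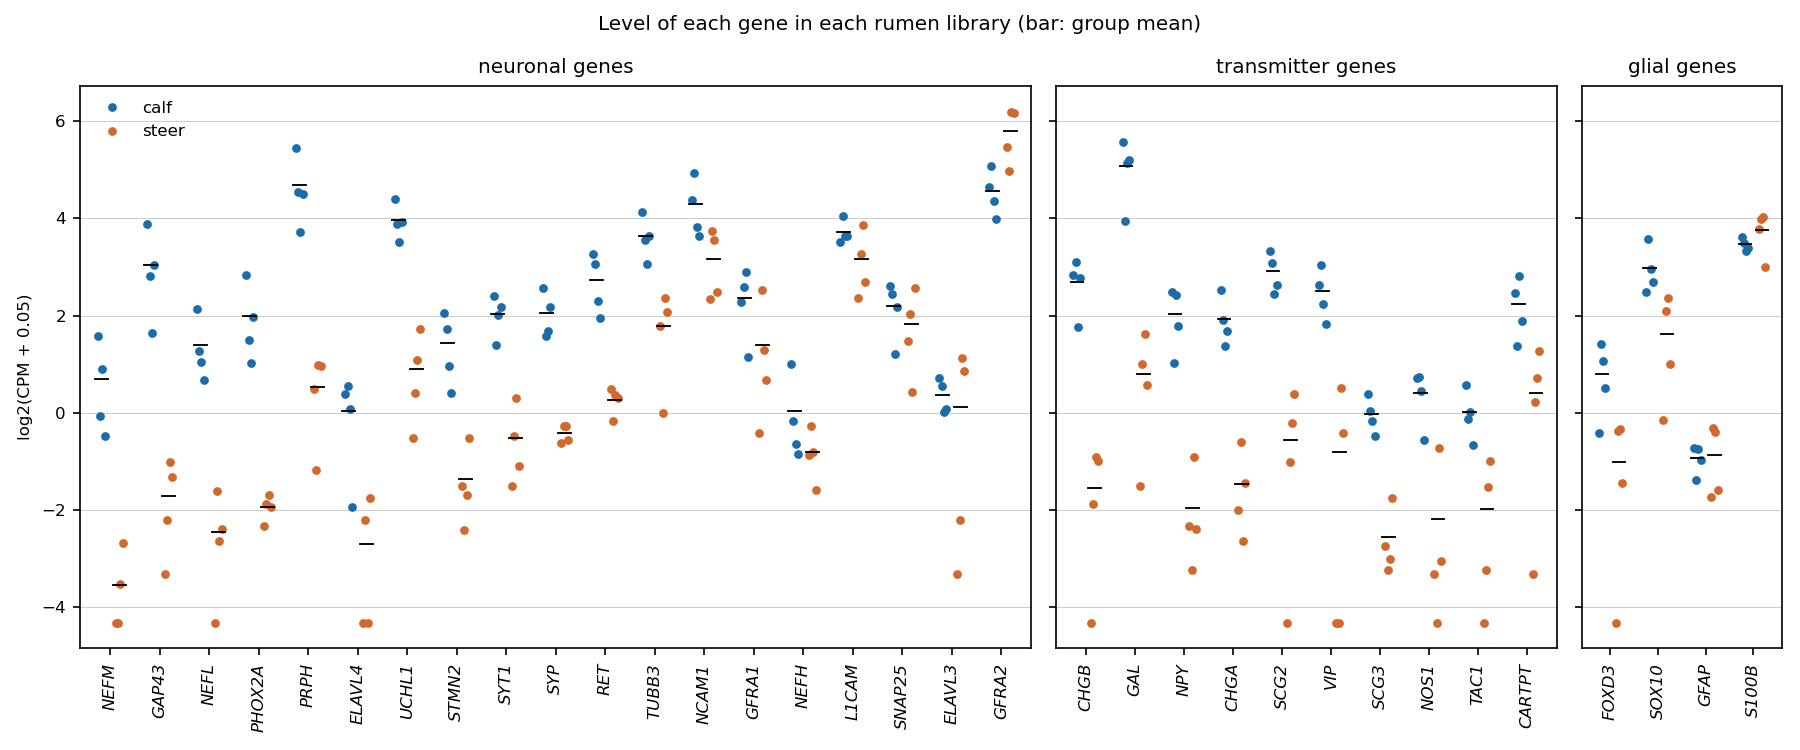
Level of each of the 33 genes in each library, as log2(CPM + 0.05), with calves in blue, steers in orange and a bar at the group mean. Steer points lie below the calf points for all 10 transmitter genes, whereas S100B and GFAP overlap between the groups.

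Among the member genes of neuronal identity, PHOX2A and RET fell. In the further neuron list described below, the lineage genes HAND2 (1.55), HOXB5 (-0.28), TBX3 (-0.40), ISL1 (-0.97) and ZEB2 (-1.82) were not called. HAND2 was called higher by DESeq2. EDNRB was called lower, and some lineage genes of that list are not reported here. PHOX2A, on chromosome 15 (51842812 to 51847286 in the file's own coordinates), was at 7.10, 2.78, 1.98 and 3.85 CPM in calves 1 to 4 and at 0.15, 0.22, 0.26 and 0.21 CPM in steers 1 to 4. The lowest calf stood well above the highest steer. The steers lay close together, but on only 6, 8, 14 and 12 counts, which say little about the spread between animals. Its change was -4.19 ± 0.50 (SE, edgeR adjusted p = 0.000775), from 3.93 ± 2.25 to 0.21 ± 0.05 CPM (SD, n = 4 each). RET, on chromosome 28 (13467109 to 13524201), was at 9.50, 8.26, 4.84 and 3.81 CPM in calves and 1.35, 0.84, 1.23 and 1.19 CPM in steers. Every steer was again below every calf, with a change of -2.52 ± 0.38 (SE, edgeR adjusted p = 0.00232).

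The co-receptors of RET had other values. GFRA1, which binds GDNF, was at 4.80, 5.92, 7.43 and 2.18 CPM in calves and 0.70, 5.68, 2.38 and 1.54 CPM in steers. The groups overlapped through steer 2, and the change of -0.98 ± 0.61 (SE, edgeR adjusted p = 0.303) was not called. GFRA2, which binds neurturin, was the gene that rose: 25.0, 33.7, 20.3 and 15.9 CPM in calves and 44.1, 31.3, 73.3 and 71.9 CPM in steers. Its change was 1.22 ± 0.33 (SE, edgeR adjusted p = 0.031), although steer 2 lay below calf 2. This call did not hold under 7 of the alternatives. Of these, 5 were the omission of 1 library (calf 1, calf 3, calf 4, steer 3 or steer 4). Over all omissions of 1 library the change ran from 1.05 to 1.43. RET stood at 0.84 to 1.35 CPM in steers, below GFRA2 on a scale that does not allow for gene span. Which cells gave the GFRA2 counts was not tested. Neurturin (NRTN) itself was at 25.9 to 41.7 CPM in calves and 16.0 to 54.5 CPM in steers, with a change of 0.15 ± 0.36 (SE, edgeR adjusted p = 0.818), whose sign turned under 6 alternatives.

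Of GAP43 and the 4 genes of axonal filaments, all but NEFH fell. GAP43, a growth cone protein, was at 14.6, 7.03, 3.07 and 8.12 CPM in calves and 0.05, 0.17, 0.45 and 0.35 CPM in steers. No steer reached 1 CPM, and the change was -4.96 ± 0.69 (SE, edgeR adjusted p = 0.00163). PRPH encodes peripherin, the intermediate filament of peripheral neurons. It was at 43.3, 23.2, 13.1 and 22.5 CPM in calves and 1.35, 0.39, 1.94 and 1.89 CPM in steers. That is a change of -4.18 ± 0.54 (SE, edgeR adjusted p = 0.00114), with all steers below all calves.

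The neurofilament genes, which encode the other axonal filaments, differed among themselves. NEFL (light chain) and NEFM (medium chain) lie next to each other on chromosome 8, at 72213269 to 72217537 and 72181208 to 72186703. NEFL was at 4.36, 2.36, 2.02 and 1.55 CPM in calves and 0, 0.28, 0.11 and 0.14 CPM in steers, and fell by 4.27 ± 0.77 on the log2 scale (SE, edgeR adjusted p = 0.00561). NEFM was at 2.93, 0.90, 1.81 and 0.67 CPM in calves and 0, 0, 0.04 and 0.11 CPM in steers. It was called lower (edgeR adjusted p = 0.00543), but the steer mean is under the level of 3 counts per library, so the size of its change is uncertain. NEFH, the heavy chain, was under 2 CPM in every library, at 0.50 to 1.96 in calves and 0.28 to 0.78 in steers, and was not called (-0.90 ± 0.56 SE, edgeR adjusted p = 0.307).

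The member genes UCHL1, STMN2 and TUBB3, of microtubule and general neuronal proteins, were also lower. In the further neuron list, MAPT (-1.10), TUBB2B (-1.99), STMN3 (-2.94) and STMN4 (-3.99) were called lower. MAP2 (1.45) and DCX (0.18) were not called, and DESeq2 called MAP2 higher. UCHL1, known as PGP9.5 and a standard stain for enteric neurons, lies on chromosome 6 (60147511 to 60159287). It was at 21.1, 14.8, 11.3 and 15.1 CPM in calves and 0.65, 1.28, 2.09 and 3.26 CPM in steers. The change was -3.08 ± 0.47 (SE, edgeR adjusted p = 0.00247), from 15.5 ± 4.04 to 1.82 ± 1.13 CPM (SD, n = 4 each), with no overlap. STMN2, a microtubule regulator of growing axons, was at 4.12, 3.26, 1.89 and 1.28 CPM in calves and 0.30, 0.14, 0.26 and 0.65 CPM in steers. It fell by 2.94 ± 0.57 on the log2 scale (SE, edgeR adjusted p = 0.00807), and reads in the 16.6% of its span shared with other genes were dropped.

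TUBB3, neuronal beta-tubulin, was at 17.4, 11.7, 8.33 and 12.3 CPM in calves and 3.40, 0.95, 5.10 and 4.17 CPM in steers. All steers lay below all calves and the gene was called lower (-1.86 ± 0.46 SE, edgeR adjusted p = 0.0228). The call ended without calf 1, without steer 1 and with the smooth muscle level in the fit, where the change was -1.64 (adjusted p = 0.113). Tubulin genes resemble each other in sequence, so its counts may hold reads of relatives or miss its own.

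Of the RNA-binding proteins, ELAVL3 and ELAVL4 (the Hu proteins used to count enteric neurons) were not called. ELAVL3 was at 1.58, 1.41, 0.97 and 1.00 CPM in calves and 0.05, 0.17, 2.14 and 1.75 CPM in steers. Steers 1 and 2 were below all calves and steers 3 and 4 above them, so the change of -0.26 ± 0.88 (SE, edgeR adjusted p = 0.877) has a wide interval, -2.21 to 1.70, and its sign turned in 3 alternatives. ELAVL4 ran from 0.21 to 1.41 CPM in calves and from 0 to 0.25 CPM in steers, with a change of -3.19 ± 1.07 (SE, edgeR adjusted p = 0.069). DESeq2, limma-voom and the fit without steer 4 called it lower.

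Of 3 genes of synaptic vesicles and their release, 2 fell. SYP (synaptophysin, a vesicle membrane protein) was at 5.87, 2.94, 3.16 and 4.48 CPM in calves and 0.60, 0.78, 0.78 and 0.63 CPM in steers. It fell by 2.55 ± 0.35 on the log2 scale (SE, edgeR adjusted p = 0.00156), with steers in a narrow range below all calves. SYT1, the calcium sensor of vesicle release, was at 5.22, 2.58, 3.96 and 4.48 CPM in calves and 0.30, 0.67, 1.19 and 0.42 CPM in steers. It fell by 2.64 ± 0.48 on the log2 scale (SE, edgeR adjusted p = 0.0058). SNAP25, a protein of the vesicle fusion complex, was at 6.01, 5.42, 2.25 and 4.48 CPM in calves and 2.75, 4.06, 1.30 and 5.86 CPM in steers. These ranges overlap widely, and the change of -0.38 had a 95% interval of -1.44 to 0.68 (edgeR adjusted p = 0.64), which leaves out a fall as large as that fitted for SYP.

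The adhesion molecules L1CAM and NCAM1, which are also made by glia, were not called. L1CAM was at 11.3, 16.4, 12.4 and 12.4 CPM in calves and 5.05, 9.63, 14.5 and 6.42 CPM in steers (-0.56 ± 0.33 SE, edgeR adjusted p = 0.278). NCAM1 was at 20.8, 30.6, 14.01 and 12.5 CPM in calves and 5.02, 13.2, 11.7 and 5.51 CPM in steers (-1.14 ± 0.40 SE, edgeR adjusted p = 0.0834). In both genes 1 steer lay within the calf range, and NCAM1 was called lower by DESeq2 and with the smooth muscle level in the fit.

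**Figure D2:**
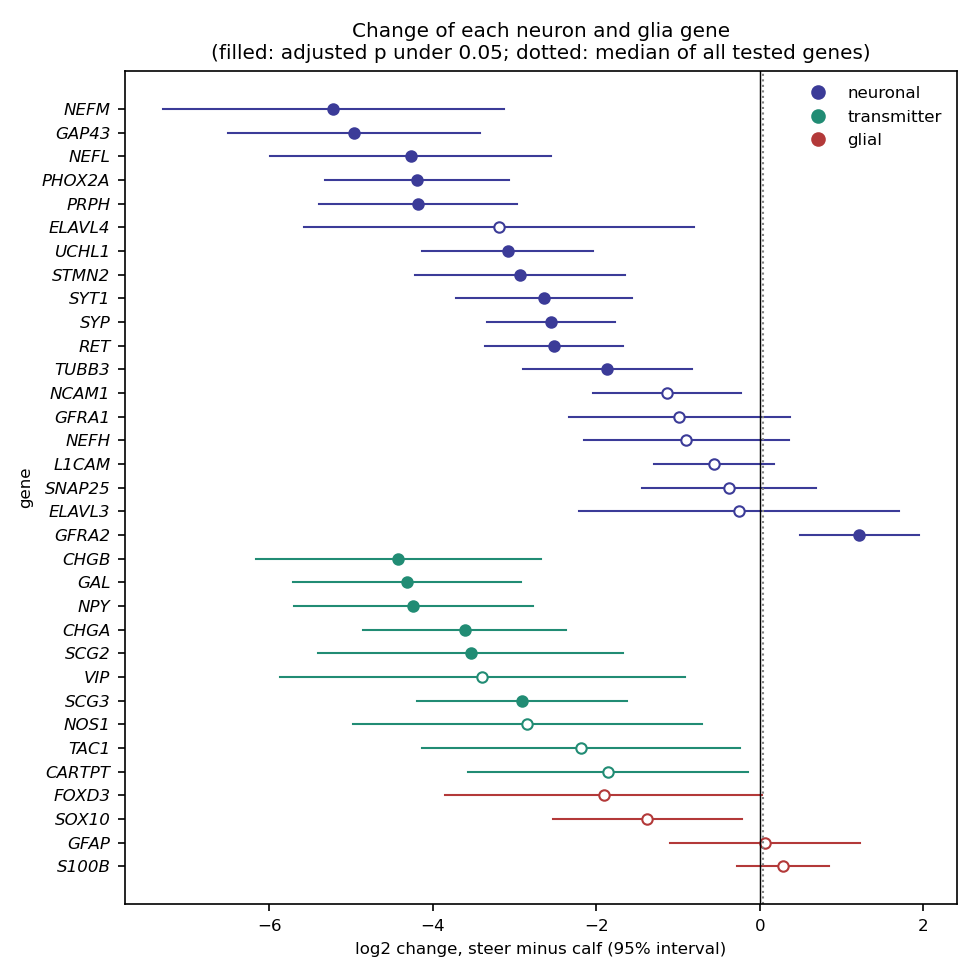
Fitted log2 change (steer minus calf) of each of the 33 genes with its 95% interval, coloured by group and filled where edgeR's adjusted p was under 0.05. Intervals of all 10 transmitter genes lie below 0, and GFRA2 is the filled point to the right of 0.

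All 10 transmitter genes were lower in every steer than in every calf, and 6 were called. GAL encodes galanin, a peptide of enteric neurons. It was at 47.2, 15.4, 35.2 and 36.6 CPM in calves and 0.30, 1.95, 3.02 and 1.44 CPM in steers. It fell by 4.32 ± 0.62 on the log2 scale (SE, edgeR adjusted p = 0.002), from 33.6 ± 13.3 to 1.68 ± 1.13 CPM (SD, n = 4 each). GAL lies on chromosome 29 (46104294 to 46110093). NPY, neuropeptide Y, was at 5.54, 1.97, 5.35 and 3.39 CPM in calves and 0.15, 0.06, 0.48 and 0.14 CPM in steers. No steer came near the lowest calf, and the change was -4.24 ± 0.65 (SE, edgeR adjusted p = 0.00267).

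The peptide VIP, which relaxes gut muscle, was at 6.15, 8.23, 4.67 and 3.47 CPM in calves and 0, 0, 1.38 and 0.70 CPM in steers. NOS1, the enzyme that makes neuronal nitric oxide, was at 1.58, 1.61, 1.30 and 0.63 CPM in calves and 0.05, 0, 0.56 and 0.07 CPM in steers. Steers 1 and 2 had at most 2 counts of either gene. VIP was highest in steers 3 and 4, and NOS1 in steer 3 alone, and neither gene was called. VIP had a change of -3.39 ± 1.11 (SE, edgeR adjusted p = 0.0635) and NOS1 one of -2.85 ± 0.95 (SE, edgeR adjusted p = 0.0695). Without steer 3 both were called lower, NOS1 with a change of -4.81, and limma-voom called both lower on all libraries.

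CARTPT, the precursor of the CART peptide, was at 5.50, 2.54, 6.99 and 3.64 CPM in calves and 0.05, 1.11, 1.60 and 2.35 CPM in steers. Steer 4 lay just below calf 2, and the change of -1.86 ± 0.77 (SE, edgeR adjusted p = 0.127) was not called. TAC1, the precursor of substance P, ran from 0.59 to 1.44 CPM in calves and from 0 to 0.46 CPM in steers (-2.19 ± 0.87 SE, edgeR adjusted p = 0.116). DESeq2 called both lower.

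The granins, proteins packed into secretory granules of neurons and endocrine cells, all 4 fell. CHGA (chromogranin A) was at 5.68, 3.68, 2.53 and 3.14 CPM in calves and 0.20, 0.61, 0.11 and 0.32 CPM in steers. CHGB (chromogranin B) was at 7.08, 8.50, 3.37 and 6.76 CPM in calves and 0, 0.22, 0.48 and 0.46 CPM in steers. SCG2 (secretogranin II) was at 9.92, 8.43, 5.39 and 6.15 CPM in calves and 0, 0.45, 0.82 and 1.26 CPM in steers. In each of these genes steer 1 or steer 3 was lowest and no steer reached a calf. The changes were -3.61 ± 0.56 for CHGA (SE, edgeR adjusted p = 0.00264) and -4.42 ± 0.78 for CHGB (SE, edgeR adjusted p = 0.00515). SCG2 changed by -3.54 ± 0.83 (SE, edgeR adjusted p = 0.0183), a call that ended with the smooth muscle level in the fit, where the change was -3.20 (adjusted p = 0.0658). SCG3, a granule sorting protein, was at 1.26, 0.97, 0.84 and 0.67 CPM in calves and 0.10, 0.06, 0.07 and 0.25 CPM in steers, and fell by 2.91 ± 0.58 on the log2 scale (SE, edgeR adjusted p = 0.00825).

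Granins also mark endocrine cells of the gut. Of the 10 enteroendocrine marker genes 3 were tested, with 1 called higher (NKX2-2) and none lower. The share called higher was 33.3%, against 7.7% of all tested genes, and rests on 1 gene. The summed level of the 10 marker genes was 1.20 to 2.07 CPM in calves and 2.24 to 12.2 CPM in steers. The defining genes NEUROD1, GCG and PAX4 had no count in any library. The summed level of the 10 transmitter genes was 52.2 to 91.3 CPM in calves and 0.85 to 8.83 CPM in steers.

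Glial genes varied among themselves. SOX10, the transcription factor of enteric glia and their precursors, was at 5.54, 11.8, 7.70 and 6.40 CPM in calves and 0.85, 4.23, 5.07 and 1.96 CPM in steers. Steer 3 was just below calf 1, so the groups did not overlap, but the change of -1.38 ± 0.52 (SE, edgeR adjusted p = 0.0979) was not called. S100B, a calcium-binding protein of glia, was at 12.3, 11.3, 10.0 and 10.4 CPM in calves and 13.7, 15.8, 16.2 and 7.93 CPM in steers. The calves lay in a narrow range, with 3 steers above it and steer 4 below. Means were 10.99 ± 0.99 and 13.4 ± 3.80 CPM (SD, n = 4 each), and the change of 0.29 had a 95% interval of -0.28 to 0.85 (edgeR adjusted p = 0.483). With the smooth muscle level in the fit its sign turned, to -0.26.

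FOXD3, a transcription factor of neural crest and glia, was at 0.70, 2.61, 2.04 and 1.38 CPM in calves and 0, 0.72, 0.75 and 0.32 CPM in steers. Steers 2 and 3 lay just above calf 1, and the change of -1.91 ± 0.87 (SE, edgeR adjusted p = 0.163) was not called. GFAP, the glial intermediate filament, was under 1 CPM in all 8 libraries, at 0.33 to 0.56 in calves and 0.25 to 0.75 in steers. Its change of 0.07 ± 0.52 (SE, edgeR adjusted p = 0.952) changed sign with the scaling and the tool.

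SOX10 and S100B also mark other cells. The summed level of the 7 melanocyte genes was 6.12 to 10.6 CPM in calves and 19.7 to 26.7 CPM in steers. Of these, 1 of 4 tested genes was called higher (MITF, 25% against 7.7% of all tested genes), and DCT was without a count. The 10 adipocyte genes, of a further class that makes S100B, summed to 115.0 to 675.9 CPM in calves and 256.5 to 576.6 CPM in steers. Of these, 2 of 8 tested were called lower (25%, against 9.16% of all tested genes). These 2, ADIPOQ and LIPE, were highest in calves 2 and 4, and the count was 0 without calf 4, without steer 3 and without calf 2 and steer 4 together, 1 without steer 1 or steer 2, and 4 without calf 1. The part of these cells in the S100B and SOX10 levels was not tested. Set against UCHL1 in the same library, S100B stood at 0.58 to 0.88 CPM per CPM of UCHL1 in calves and at 2.43 to 21.2 in steers, with no overlap. SOX10 stood at 0.26 to 0.80 CPM per CPM of UCHL1 in calves and at 0.60 to 3.30 in steers, and these ranges overlap. UCHL1 itself was lower in every steer than in every calf, so both ratios rise with its fall and are not a separate result on glia.

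**Figure D3:**
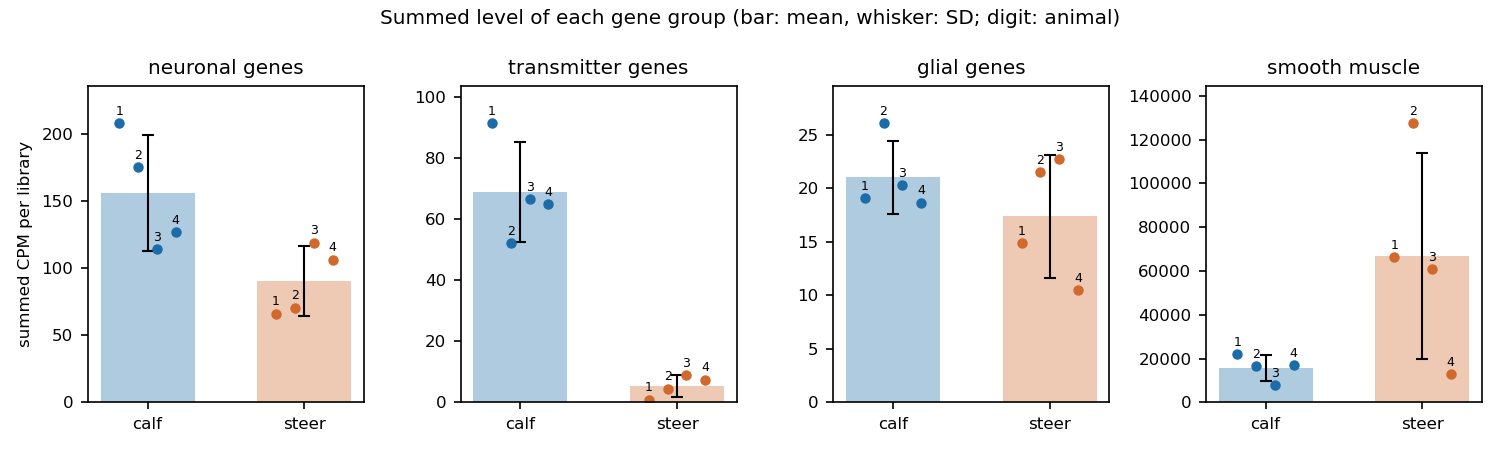
Summed CPM per library for the neuronal, transmitter and glial genes and for the smooth muscle list, with the mean as a bar, the SD as a whisker and the animal's number at each point. Transmitter sums do not overlap between calves and steers, whereas neuronal and glial sums do, and steer 4 lies apart from the other steers in smooth muscle.

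The summed level of the 19 neuronal genes was 114.5 to 208.2 CPM in calves and 66.3 to 119.2 CPM in steers. GFRA2 supplied 31.3 to 73.3 CPM of the steer sums and 15.9 to 33.7 CPM of the calf sums. The 4 glial genes summed to 18.7 to 26.0 CPM in calves and 10.5 to 22.7 CPM in steers.

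Several smooth muscle genes were higher in steers. Of the 14 smooth muscle genes 12 were tested, with 6 called higher, 1 lower (ACTA2) and KCNMB1 without a count, and MYH11, smooth muscle myosin, had a change of 1.97 ± 0.47 (SE, edgeR adjusted p = 0.0194). The called shares were 50% higher and 8.3% lower, against 7.7% and 9.16% of all tested genes. The count of 6 was 3 without calf 1, calf 3 or calf 4, 4 without steer 2 or steer 3, and 10 without steer 4, and the call of MYH11 ended without calf 1, calf 3, calf 4 or steer 3. With the mean level of the 12 tested genes in the fit, 16 of the 33 neuron and glia genes were called lower and 1 higher. Per 1000 CPM of MYH11 in the same library, UCHL1 stood at 16.6 to 46.0 CPM in calves and 0.45 to 2.99 CPM in steers. S100B, which was not called, stood at 12.6 to 31.8 CPM on that scale in calves and 4.93 to 10.8 CPM in steers, also without overlap, so the ratio moves with MYH11 as well as with the gene set against it.

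Animals of a group also differed along the genes. Calf 1 had the highest calf value for 22 of the 33 genes and for 16 of the 17 called lower, while calf 4 was lowest for 13 and calf 3 for 11. Steer 1 had the lowest steer value for 21 of 33. Steer 1 had no count for 8 of the genes, steer 2 for 3, steer 3 for 1 and steer 4 for none, whereas every calf had counts for all 33. These genes share libraries, so the counts describe these 8 animals.

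The other genes of enteric neurons were read from a list of 75. Of these 53 were tested, with 22 called lower, 3 called higher and a median change of -0.97. The called shares were 41.5% lower and 5.7% higher, against 9.16% and 7.7% of all tested genes. Some of the called genes with large changes and a few lineage genes are named here. SST (somatostatin) was at 8.11, 3.21, 1.81 and 4.14 CPM in calves and 0, 0, 0.07 and 0.21 CPM in steers. SST was thus at or near 0 in all steers and was called lower (-5.73 ± 0.95 SE, edgeR adjusted p = 0.00373). Its steer mean of 0.07 CPM is at the level of 3 counts per library, so the size of its change is uncertain.

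DDC, an enzyme of monoamine synthesis, was at 0.38 to 1.76 CPM in calves and 0 to 0.05 CPM in steers. It was called lower (edgeR adjusted p = 0.00374), with a steer mean under 3 counts per library. EDNRB, the endothelin receptor of neural crest cells, fell by 2.43 ± 0.57 on the log2 scale (SE, edgeR adjusted p = 0.0185), a call that ended with the smooth muscle level in the fit (-1.90, adjusted p = 0.119), whereas its ligand EDN3 rose by 1.43 ± 0.33 (SE, edgeR adjusted p = 0.0157).

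Enzymes of the classical transmitters differed. TH, the first enzyme of catecholamine synthesis, was at 105.6, 50.9, 50.5 and 122.0 CPM in calves and 30.3, 21.4, 19.6 and 13.3 CPM in steers, and fell by 1.96 ± 0.37 on the log2 scale (SE, edgeR adjusted p = 0.00658). DBH, the enzyme that makes noradrenaline, stayed at or under 0.56 CPM in every library. TH in calves was above DBH, DDC (0.38 to 1.76 CPM) and UCHL1 (11.3 to 21.1 CPM), on a scale that does not allow for gene span. Which cells gave the TH counts was not tested, so its fall cannot be read as one of neurons. CHAT, which makes acetylcholine, was at 1.02, 0.70, 0.88 and 0.92 CPM in calves and 0.55, 0, 0.07 and 1.93 CPM in steers. Steer 4 was above all calves and steers 1 to 3 below them, and CHAT was not called (-0.45 ± 1.03 SE, edgeR adjusted p = 0.813), with its sign turned by the smooth muscle level in the fit.

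Besides EDN3, 2 genes of that list were called higher. CNTNAP2, an axonal adhesion protein, was at 3.54, 5.87, 1.66 and 3.93 CPM in calves and 21.8, 11.1, 13.5 and 54.8 CPM in steers (2.75 ± 0.57 SE, edgeR adjusted p = 0.0101). P2RX3, an ATP-gated channel of sensory neurons, was at 3.91, 12.3, 4.63 and 22.2 CPM in calves and 53.4, 35.2, 74.4 and 83.1 CPM in steers (2.51 ± 0.55 SE, edgeR adjusted p = 0.0137). All steers lay above all calves for both. CPM is not scaled to the counted span, which was 2325.45 kb for CNTNAP2, 34.2 kb for P2RX3 and 11.8 kb for UCHL1. Their levels were therefore not compared with each other. Which cells gave the counts of CNTNAP2 and P2RX3 was not tested, so these rises cannot be read as rises in neurons. GDNF, the ligand of GFRA1 and RET, was at 0.19 to 0.52 CPM in calves and 0.35 to 1.32 CPM in steers and was not called (0.96 ± 0.54 SE, edgeR adjusted p = 0.256).

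**Figure D4:**
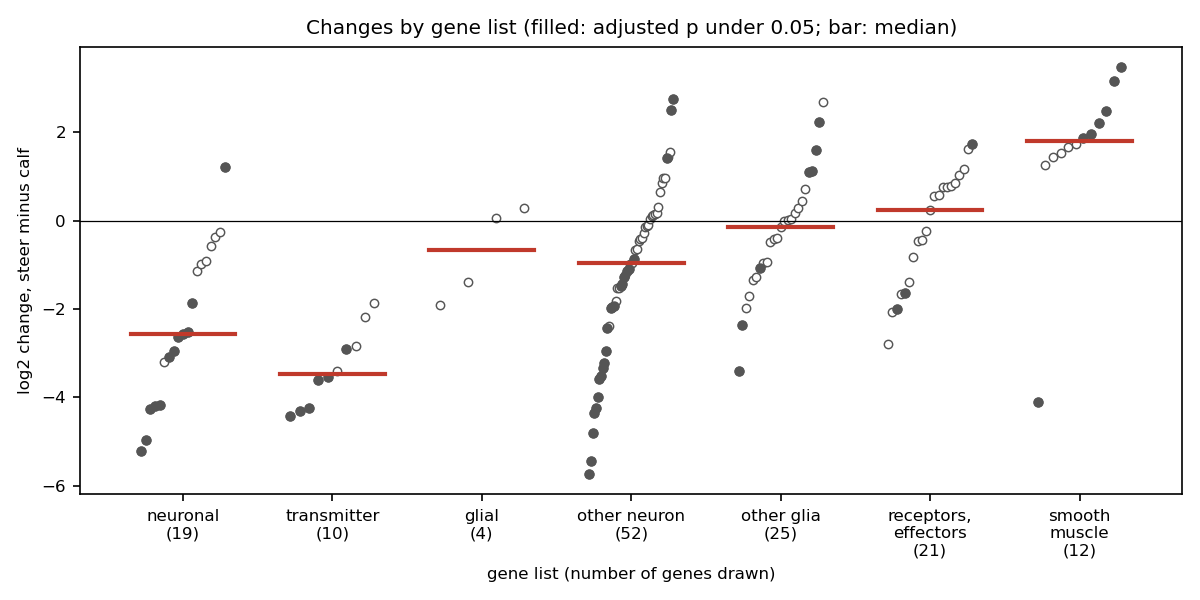
Log2 change of the tested genes by list, leaving out any without a count in a whole group, sorted within each list, filled where edgeR's adjusted p was under 0.05, with the median of the drawn genes as a red bar. The transmitter median is -3.46 and that of receptors and effectors 0.25.

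Of 30 further glia and Schwann cell genes 25 were tested, with 3 called lower, 4 higher and a median of -0.14. The called shares were 12% lower and 16% higher, against 9.16% and 7.7% of all tested genes. With so few calls in the list, this difference from all genes was not tested. NGFR, the low-affinity neurotrophin receptor, fell by 3.40 ± 0.62 on the log2 scale (SE, edgeR adjusted p = 0.00609). PRX, a myelin gene (-1.06 ± 0.31 SE, edgeR adjusted p = 0.0433), also fell, but the call of PRX ended without any 1 library other than steer 2. The 4 that rose were S100A4 (2.23), CRYAB (1.59), FOXO4 (1.13) and CNP (1.11), which many other cell types also express. With the smooth muscle level in the fit NGFR had a change of -3.42 (edgeR adjusted p = 0.0507), FOXO4 one of 0.43 (0.199) and CNP one of 0.70 (0.0849), so that their calls ended. The call of FOXO4 also ended without calf 3, calf 4, steer 2 or steer 3.

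Receptors and effectors that answer enteric transmitters were read from a list of 38, of which 36 were in the table and 21 tested. Of these, 2 were called lower, 1 higher, and the median change was 0.25. The called shares were 9.5% lower and 4.8% higher, against 9.16% and 7.7% of all tested genes, so the counts do not set this list apart. P2RY2, an ATP and UTP receptor, fell by 2.00 ± 0.34 on the log2 scale (SE, edgeR adjusted p = 0.00457), and ADCYAP1R1, the PACAP receptor, by 1.63 ± 0.40 (SE, edgeR adjusted p = 0.0215), a call that ended without calf 4 and with the smooth muscle level in the fit (-1.46, adjusted p = 0.09997). TACR2, the neurokinin receptor of smooth muscle, rose by 1.74 ± 0.51 (SE, edgeR adjusted p = 0.0437), with 28.9% of its span shared with other genes. The call of TACR2 ended without any 1 library other than calf 2 and steer 4, and with the smooth muscle level in the fit (0.41, adjusted p = 0.439). VIPR2, a VIP receptor of smooth muscle, was at 34.8, 54.3, 27.2 and 44.4 CPM in calves and 48.1, 87.2, 41.1 and 14.7 CPM in steers. It was not called (0.25 ± 0.45 SE, edgeR adjusted p = 0.755). With the smooth muscle level in the fit its sign turned and it was called lower (-1.18, edgeR adjusted p = 0.0298).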

How the data were processed

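RNA of 8 rumen libraries was measured, 4 calves and 4 steers. Per the submitters' processing notes, Trimmomatic 0.39, STAR 2.7.11a, featureCounts 2.0.2 and DESeq2 1.42.0 were used. Genome build: not given in the sources used here. The authors deposited whole-number counts per gene name, not normalized. Per the file headers, they were counted over whole transcript spans, introns included, without strand, so genes on opposite strands cannot be told apart. Reads in more than 1 gene were dropped, and both mates counted: 86.9% to 89.0% of counts from 1 to 10 were even. Symbols were matched to the ARS-UCD2.0 table for 27621 genes (83.4%). The other deposited column used was span length.

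CPM used TMM scaling. The test was edgeR 4.0.16 (R 4.3.3, filterByExpr, robust quasi-likelihood fit), with DESeq2 and limma 3.58.1 (voom) as alternatives, and 16326 genes passed the filter. The biological coefficient of variation was 41.8%. Libraries of a group differed from each other far beyond sampling noise (chi-square of at least 113 for each degree of freedom). Intervals of log2 changes come from the edgeR fit and include the spread between animals, while the floor of 3 counts covers counting error only. Members, lists and tests were chosen with earlier results of these data known. Members at 1 CPM or more in a group mean, or called, were given by library, and the rest by range. In other lists the called genes with the largest changes, up to 4 per direction, and 8 genes whatever their result were chosen, and some of them are not reported here; NRTN and DBH were added after their values were seen. The code was tested on simulated counts.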

Additional observations from a re-analysis of the deposited data

Results flagged for a closer look

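Groups of 4 libraries were searched for a value far from the other 3 (Dixon's gap-to-range ratio above its 95% critical value), which chance gives in about 1 in 20 groups. It was found in 4 of 104 groups, and in 1 of 66 groups of the 33 genes. NOS1 was at 0.56 CPM in steer 3, above 0 to 0.07 CPM in the other steers. NGFR, also in steer 3, was at 0.52 CPM against 0.10 to 0.14 CPM. S100A4 was at 2307 CPM in steer 1 and at 898.7 to 1056 CPM in the others. GDNF was at 0.19 CPM in calf 1 and at 0.46 to 0.52 CPM in the other calves.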

How the results depend on the processing

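Under the alternatives 15 to 23 of the 33 genes were called lower (17 in the main test; DESeq2 23, limma-voom 20, at least 1 CPM in 4 libraries 15 of 25 tested), and leaving out 1 library gave 16 to 19. The 1 call of a higher gene, GFRA2, became 0 with library size only and with the replicate block, and was 0 to 1 when 1 library was left out. In all, 20 genes, 15 of them called lower, kept direction and call under every alternative that tested them. Same-numbered calves and steers deviated together with correlations of only -0.27 to 0.20, and 1 of 8 libraries correlated best with its own number, so the numbers were not read as pairs. With the replicate block 17 of the 33 genes were called lower, with SCG2 lost (adjusted p = 0.0521) and SOX10 gained (-1.61, adjusted p = 0.0471). Over all genes it left 1831 calls against 2752, and the fits without calf 1 left 1734. Library size only shifted the median of all genes by -0.11 and made 34.9% of calls higher, against 45.7%. The sign turned for ELAVL3 with the smooth muscle covariate (0.18) and when 1 library was left out (-0.88 to 0.14), and for S100B with that covariate (-0.26). GFAP was at -0.0068 with library size only, -0.0706 in limma-voom, -0.0651 with the block, -0.58 with the covariate and -0.18 to 0.30 when 1 library was left out. With the covariate CHAT was at 0.55 and VIPR2 at -1.18, where VIPR2 was called lower (edgeR adjusted p = 0.0298). The change of VIPR2 ran from -0.20 to 0.55 when 1 library was left out. NRTN was at -0.0042 with library size only, -0.0045 in limma-voom, -0.69 with the covariate, -0.14 with the gene span slope and -0.0885 to 0.4013 when 1 library was left out, and SYN1 at -0.0309, -0.24 (library size only, covariate) and -0.0142 to 0.222. Of the 75 further neuron genes, 13 in place of 22 were called lower without calf 1 and 13 at the stricter filter. Calls of the receptor list were 0 to 4 higher and 1 to 3 lower, and of the glia and Schwann cell list 2 to 5 higher and 1 to 6 lower. The causes were not tested. Genes under 1 CPM rest on few counts, and a single library can decide their call.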

Other observations

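Among the other neuron genes not described above, PENK, the precursor of the enkephalin opioid peptides, was at 32.4, 31.6, 14.4 and 22.5 CPM in calves and 0.15, 0.95, 1.416 and 2.38 CPM in steers. It was called lower (-4.35 ± 0.66 SE, edgeR adjusted p = 0.00248), with no overlap. SLC18A3, the transporter that loads acetylcholine into vesicles, was at 3.31, 1.74, 0.80 and 1.51 CPM in calves and 0, 0.33, 0.04 and 0.04 CPM in steers, and was called lower as well (-4.24 ± 0.97 SE, edgeR adjusted p = 0.0162), though not without calf 1. SYN1, a synaptic vesicle protein, was at 3.66 to 5.82 CPM in calves and 3.72 to 6.27 CPM in steers (0.10, edgeR adjusted p = 0.857), and its sign turned under 4 alternatives. These 3 genes were picked after their values were seen.

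Of the 6 genes of interstitial cells of Cajal, the pacemaker cells that lie beside enteric neurons, 1 was called higher (THBS4) and 1 lower. These are shares of 16.7% each, against 7.7% higher and 9.16% lower of all tested genes, and each rests on 1 gene. KIT and ANO1, the defining genes of Cajal cells, were not called. KIT was at 0.51, 2.61, 2.04 and 0.88 CPM in calves and 2.15, 6.29, 9.98 and 3.49 CPM in steers (1.85, edgeR adjusted p = 0.0664), but was called higher under 5 alternatives, among them DESeq2 and the fit without steer 1. The summed level of the 6 genes was 33.6 to 50.8 CPM in calves and 80.2 to 170.1 CPM in steers. THBS4 alone made up 3.11 to 7.73 CPM of the calf sums and 47.7 to 133.2 CPM of the steer sums.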
